A study of Homo sapiens with 4 samples.

Results

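A single run of acetylated chromatin on the short arm of chromosome 19, holding POLR2E, GPX4, SBNO2, STK11 and CIRBP, was described from the H3K27ac and CTCF peak lists of DU145 cells. The members were all peaks of either list that shared a base with chromosome 19, 0.95 to 1.4 Mb (build hg19): 113 of 50364 H3K27ac peaks and 28 of 36152 CTCF peaks, 141 of 86516 in all. The stretch was chosen from the readout. It surrounds the domain with the highest sum of H3K27ac fold enrichment times peak width in the list, so its acetylation is given here as a description and is not a finding. The study mapped CTCF and H3K27ac by chromatin immunoprecipitation and sequencing in DU145 cells with no treatment named, DU145 being an established prostate cancer cell line from a brain metastasis, as part of work on RNA polymerase II-associated chromatin interactions. The series has 4 libraries: DU145 CTCF, DU145 H3K27ac, DU145 input and LNCaP input (LNCaP is a prostate cancer line from a lymph node metastasis). The input libraries were not used here, and with 1 library per mark no value has a replicate error. Cell type markers were not checked, because no gene annotation of the build of the files was used.

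H3K27ac is an acetyl mark on nucleosomes at active promoters and enhancers, and it lies broadly over clusters of enhancers. CTCF, a zinc finger protein, occupies insulators and holds the bases of chromatin loops, and nucleosomes beside its sites are often regularly placed. POLR2E encodes a subunit shared by the nuclear RNA polymerases. GPX4 encodes a peroxidase that reduces lipid hydroperoxides and protects cells from ferroptosis. SBNO2 encodes a transcriptional co-regulator that acts downstream of STAT3 in macrophages. STK11 encodes LKB1, a tumour suppressor kinase that activates AMPK, and CIRBP encodes an RNA-binding protein induced by mild cold.

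The promoter sequences of the 5 genes are shown because H3K27ac lay over or beside each start site. The 250 bases before the outermost start of each gene are from RefSeq (GRCh38.p14), matched by symbol for 5 of 5 genes. Their positions are in a different build from the peaks and cannot be set against them: POLR2E chr19:1095376-1095625 (minus strand), GPX4 chr19:1103744-1103993 (plus strand), SBNO2 chr19:1174269-1174518 (minus strand), STK11 chr19:1205528-1205777 (plus strand), CIRBP chr19:1269082-1269331 (plus strand). They are written 5′ to 3′ along the gene, in lower case, with matches to the searched motifs in capitals.
POLR2E: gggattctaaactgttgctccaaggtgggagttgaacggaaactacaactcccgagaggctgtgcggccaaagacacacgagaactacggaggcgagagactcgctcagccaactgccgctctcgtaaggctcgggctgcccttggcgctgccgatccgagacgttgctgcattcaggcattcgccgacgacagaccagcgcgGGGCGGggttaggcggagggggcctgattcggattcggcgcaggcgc
GPX4: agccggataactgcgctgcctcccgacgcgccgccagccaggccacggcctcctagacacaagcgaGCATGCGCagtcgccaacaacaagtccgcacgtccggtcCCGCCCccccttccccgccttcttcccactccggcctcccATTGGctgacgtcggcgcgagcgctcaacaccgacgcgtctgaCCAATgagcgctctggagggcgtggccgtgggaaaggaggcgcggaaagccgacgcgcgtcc
SBNO2: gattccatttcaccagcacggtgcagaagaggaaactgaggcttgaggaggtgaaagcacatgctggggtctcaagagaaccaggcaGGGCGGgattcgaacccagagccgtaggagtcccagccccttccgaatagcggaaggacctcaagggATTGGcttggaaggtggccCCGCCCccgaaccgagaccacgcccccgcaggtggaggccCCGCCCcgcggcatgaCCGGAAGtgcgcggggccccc
STK11: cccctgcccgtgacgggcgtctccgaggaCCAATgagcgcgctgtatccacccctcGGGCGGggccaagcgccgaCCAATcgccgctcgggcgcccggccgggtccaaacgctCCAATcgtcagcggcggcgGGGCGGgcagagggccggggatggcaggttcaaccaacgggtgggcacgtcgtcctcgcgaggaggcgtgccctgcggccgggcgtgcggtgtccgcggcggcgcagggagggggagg
CIRBP: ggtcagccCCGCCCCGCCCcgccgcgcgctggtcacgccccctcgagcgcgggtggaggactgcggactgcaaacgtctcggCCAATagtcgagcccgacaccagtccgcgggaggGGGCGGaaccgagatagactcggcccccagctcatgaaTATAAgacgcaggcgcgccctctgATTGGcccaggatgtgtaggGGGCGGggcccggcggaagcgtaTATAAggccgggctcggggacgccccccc

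The capitals mark, on either strand, the CCAAT box (CCAAT), the GC box (GGGCGG), the TATA motif (TATAA), the ETS motif (CCGGAAG) and GCATGCGC, which is part of the NRF1 motif. The whole NRF1 motif, the AP-1 motif (TGANTCA) and the cAMP response element (TGACGTCA) were searched as well. The motif letters were chosen with these promoters in view, so the counts beside their background shares are a description and no test. GC boxes were found in 5 of 5 promoters, against 42.6% of 35116 RefSeq windows of the same length, and CCAAT boxes in 4 of 5, against 32.0%. The CIRBP promoter had 4 GC boxes, of which those starting 242 and 237 bases before the start overlap. The TATA motif was in CIRBP alone among the 5, with 1 of its 2 matches starting 29 bases before the start site, against 18.9% of windows. The ETS motif was in SBNO2, 21 bases before the start, against 8.52% of windows, and GCATGCGC in GPX4, against 2.63%. No promoter of the 5 held the full NRF1 motif (1.03% of windows), the AP-1 motif (6.57%) or the cAMP response element (1.65%). STK11 had the most G and C, at 76.0% with 37 CpG, and POLR2E the fewest, at 62.8% with 25 CpG. SBNO2 had the fewest CpG, at 17. The median window had 58.0% G and C and 11 CpG, so all 5 lay above it on both counts. A match describes these letters only and shows no binding.

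The acetylated peaks formed 1 long domain with a sparser flank on its left and a nearly bare flank on its right. Joining H3K27ac peaks over the default distance of super-enhancer calling with ROSE, or over 10 kb, gave a domain from 1063426 to 1277765 that was 214 kb long and held 96 peaks and 16 CTCF summits. All 5 genes lay in it, so the run reaches past SBNO2 on the left, to POLR2E and beyond. Peaks covered 52.6% of the domain, 16.8% of the 113 kb to its left and 2.59% of the 122 kb to its right. On the rest of chromosome 19 they covered 4.68%, so the left flank was sparse only beside the domain. The left flank had 13 H3K27ac peaks and 6 CTCF summits, and the right flank 4 H3K27ac peaks and 6 CTCF summits. The domain ended at a gap of 22.5 kb on the left and of 76.4 kb on the right, while its own largest gaps were 9.996 and 8.02 kb. The largest lay between SBNO2 and STK11 and was only just under 10 kb. A slightly shorter joining distance would thus split the domain there. Of its 95 gaps 68 were under 1 kb, with a median of 478 bases. The single run depends on weak peaks and on the joining distance. Keeping only peaks with a −log10 q of 10 or more in both lists gave 6 pieces. The longest was the 40.9 kb around CIRBP (1236900 to 1277765) with 5 CTCF summits, and the longest over SBNO2 was 31.3 kb with 0. In the full CTCF list the piece around CIRBP held 6 summits, and the one over SBNO2 held the weak summit at 1153930. Joining within 5 kb gave 5 pieces that together held the 16 summits. Of these, 1205019 to 1277765 (STK11 and CIRBP, 72.7 kb) held 11, 1080410 to 1136976 (POLR2E, GPX4 and the end side of SBNO2, 56.6 kb) held 2, and 1144996 to 1195022 (the start side of SBNO2, 50.03 kb) held 2.

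**Figure D1:**
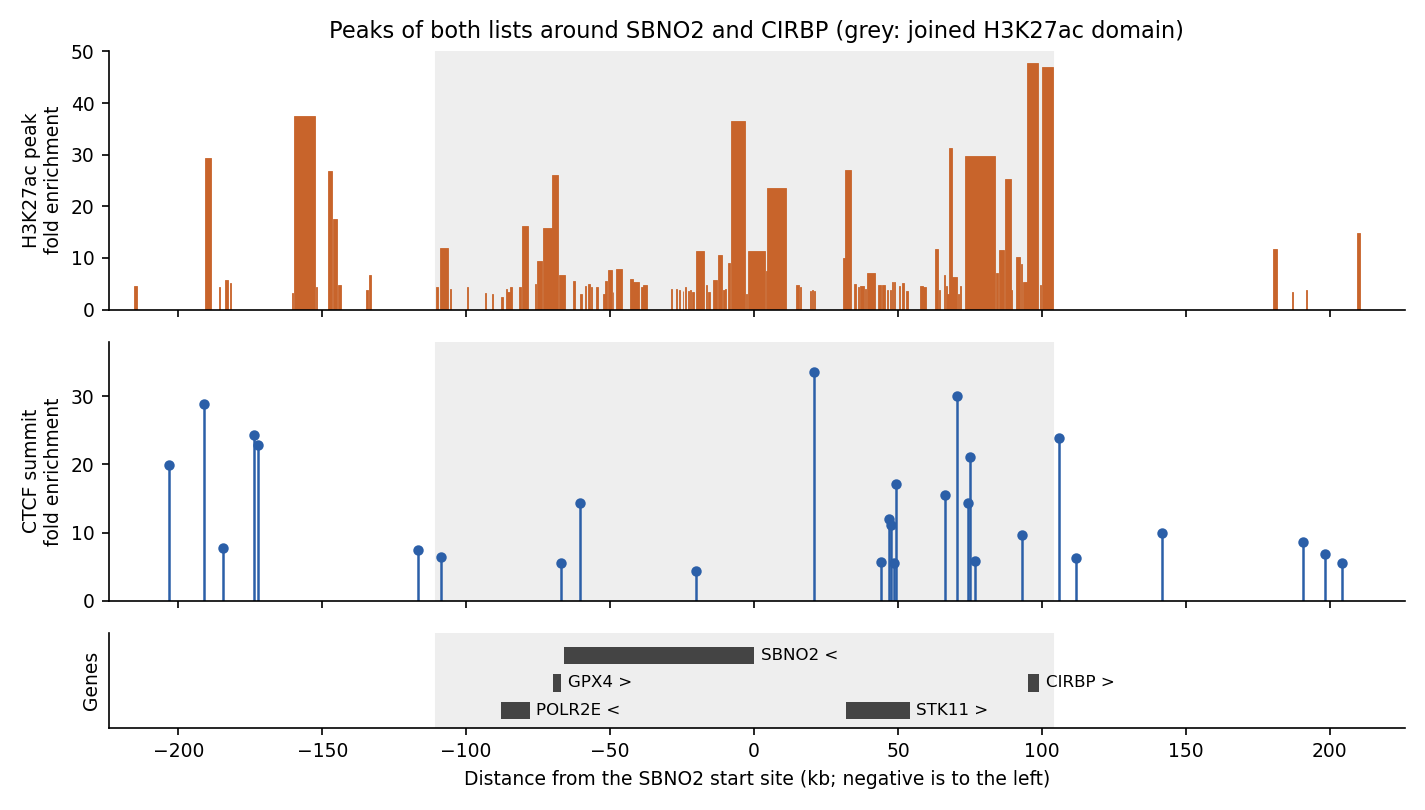
Fold enrichment of every H3K27ac peak (top, bar width is peak width and height is the fold at the summit) and CTCF summit (middle) against distance from the SBNO2 start site in kb, with the 5 genes below (arrowheads give the direction of transcription) and the joined H3K27ac domain in grey. The 2 highest H3K27ac bars, at 47.8 and 46.9, lie at the right end of the domain, and no H3K27ac peak follows for 76.4 kb.

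Most acetylated peaks were weak, to the same extent as in the whole list, and a few strong ones made up much of the acetylated length. Fold enrichment is the authors' value for each peak, used here within 1 list only. In the window 12 of 113 H3K27ac peaks (10.6%) had a fold of 20 or more, against 7.19% of the whole list, and they held 34.6% of the acetylated bases, against 18.5% in the whole list. A fold under 5 was found for 63 of 113 peaks (55.8%), against 55.5% in the list. The median fold was 4.79 in the window and 4.55 in the list, and the median width was 628 and 566 bases. Peaks whose −log10 q was at least 10 were 42 of 113, 37.2%, against 43.4% in the list. At thresholds of 5 and 20 the shares were 76.1% against 70.6% and 24.8% against 29.5%. Peaks over 1 kb wide were 36 of 113, 31.9%, against 25.5%, and peaks over 2 kb wide 15 of 113, 13.3%, against 7.41%. These H3K27ac values are from the list that chose the window and carry no test. The number of fragments at a summit, solved from the deposited fold and −log10 p, had a median of 20 (range 12 to 206) in the window and 23 in the list. The local background was within 0.05 fragments of the lowest level of the list for 66 of 113 peaks (58.4%), against 31.8% of the list, and a low background raises a fold. Its part in the folds was not tested.

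The strongest H3K27ac peak of the window lay at the CIRBP start. It spanned 1268756 to 1272466, with a fold of 47.8 that ranked 129 in the list and 204 summit fragments (95% interval, exact Poisson, 177 to 234; counting error only). The next, at 1273927 to 1277765 (fold 46.9, 195 fragments), closed the domain. It began past the CIRBP end of the member rule, but CIRBP is longer in RefSeq, so whether it begins inside CIRBP cannot be told here. Rank 3 in the window was in the left flank at 1014163 to 1021579 (fold 37.5, 161 fragments), outside all 5 genes. Rank 4 lay in SBNO2 at 1166135 to 1170759 (fold 36.5, 206 fragments). Rank 5 was a narrow peak of 893 bases between STK11 and CIRBP, at 1241699 to 1242591 (fold 31.4, 130 fragments). The 3 widest peaks had 10289, 7417 and 6439 bases. The widest, at 1247344 to 1257632, also lay between STK11 and CIRBP, and the one of 6439 bases lay at 1178606 to 1185044, upstream of SBNO2.

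At the level of genes, each of the 5 start sites had an acetylated peak over it or within 0.636 kb, and in each gene coverage was higher from the start site to the middle than from there to the end. Gene positions are those of the member rule, given in whole kb, so distances to a gene carry at least that uncertainty. The rule gives POLR2E 10 kb and CIRBP 4 kb, where the RefSeq table gives 8.80 and 5.55 kb. The peak count and coverage of these genes and the distances to their starts and ends thus depend on the rule as well. The other genes differ by less than 1 kb. Strand is from RefSeq. POLR2E and SBNO2 are read leftward and GPX4, STK11 and CIRBP rightward.

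POLR2E (1.086 to 1.096 Mb) had 6 peaks that covered 48.5% of its body. Its peak nearest the start, at 1093347 to 1095364, had a fold of 16.1 from 91 fragments (interval 73.3 to 112). It ended 0.636 kb inside the start of the rule, a distance that depends on that start. The 5 other peaks had folds between 2.49 and 4.31. GPX4 (1.104 to 1.107 Mb) was covered to 85.4% by 2 peaks. The peak over its start, at 1103969 to 1105726, had a fold of 26.1 from 108 fragments (interval 88.6 to 130.4). A peak at 1106165 to 1108269 (fold 6.70) ran across the GPX4 end and the SBNO2 end, so these neighbours shared it. Between POLR2E and GPX4 the 8 kb were covered to 65.3%, with a highest fold of 15.8.

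SBNO2 (1.108 to 1.174 Mb), the longest of the 5, had 35 peaks that covered 49.1% of its body, and its strongest peak was not the one over the start. The start lay inside a peak of 6059 bases, 1171830 to 1177888, with a fold of 11.4 from 99 fragments (interval 80.5 to 121). The strongest peak lay inside the gene, downstream of it, with 206 fragments (interval 179 to 236). In steps of 11 kb from the start, peaks covered 79.1%, 66.8%, 23.6%, 43.6%, 51.4% and 29.8% of the gene. The highest folds in those steps were 36.5, 11.3, 4.31, 5.99, 7.90 and 6.70. Coverage and the highest fold were thus largest in the first 22 kb and lowest in the step from 22 to 33 kb. The median folds were 4.07, 4.79, 3.95, 5.03, 4.92 and 4.79, over peaks whose summit lay in the step. The peak over the start, with a fold of 11.4 and its summit upstream of the gene, is not among them. The first median rests on 5 peaks without it, so it cannot be ranked against the others. Of the 34 peaks other than the strongest, 21 had folds under 5, a class that held 55.5% of the whole list.

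STK11 (1.206 to 1.228 Mb) had 1 strong peak at its start and many weak ones behind it. The start peak, at 1205702 to 1207547, had a fold of 27.1 from 117 fragments (interval 96.8 to 140). The 14 other peaks in the gene had folds between 3.59 and 7.11, and 10 of them were under 5, beside 55.5% of the whole list. All 15 together covered 57.5% of the gene, but 18.8% when only peaks with a −log10 q of 10 or more were kept. CIRBP (1.269 to 1.273 Mb) was covered to 86.7%, within the limits of the rule, by the single peak over its start. The same threshold left GPX4 and CIRBP at 85.4% and 86.7%, and gave 20.2% for POLR2E and 27.7% for SBNO2. Peaks under that threshold thus held most of the coverage of POLR2E and STK11 and a smaller part of that of SBNO2.

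**Figure D2:**
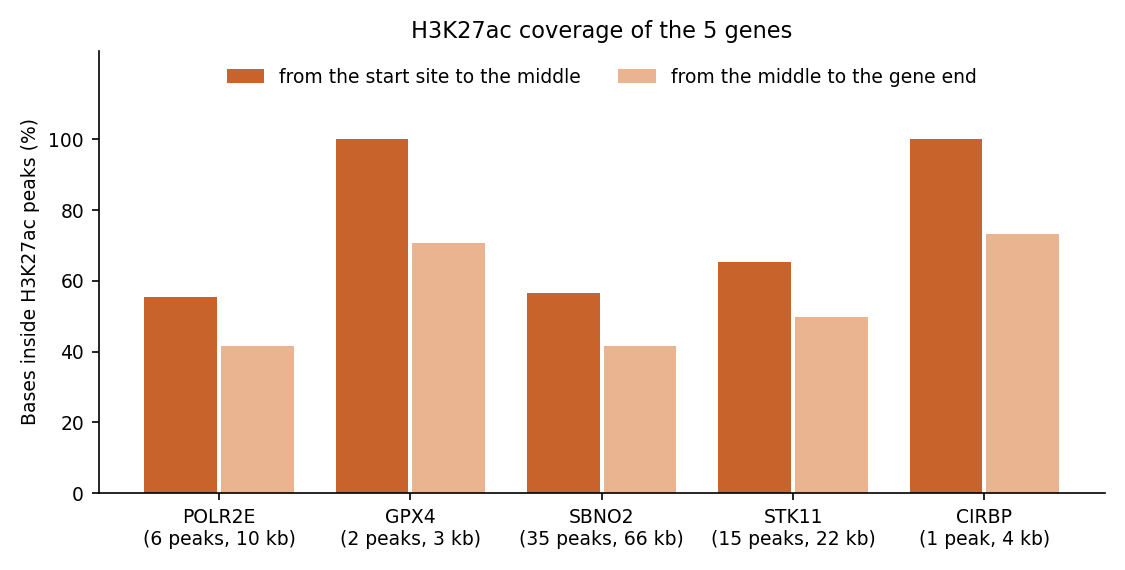
Percent of bases inside H3K27ac peaks in each gene, from the start site to the middle (dark) and from the middle to the gene end (light), with the number of peaks and the gene length. The dark bar is the higher one in all 5 genes: 55.5% against 41.6% in POLR2E, 100% against 70.8% in GPX4, 56.5% against 41.6% in SBNO2, 65.2% against 49.8% in STK11 and 100% against 73.3% in CIRBP.

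Joining H3K27ac peaks up to 2 kb apart divided the window into 24 stretches, and the longest ones held the SBNO2 start and CIRBP separately. The stretch with CIRBP ran from 1236900 to 1277765, 40.9 kb with 20 peaks, 81.1% of its bases in peaks and 6 CTCF summits. By the order of genes in RefSeq, CBARP, ATP5F1D (a subunit of ATP synthase) and MIDN lie between STK11 and CIRBP; peaks were not assigned to them, because that table is in a different build. The stretch at the SBNO2 start ran from 1144996 to 1185044, 40.0 kb with 21 peaks, 73.5% in peaks and 1 CTCF summit. It reached upstream of the SBNO2 start. STK11 had a stretch of its own, 1205019 to 1227514 (22.5 kb, 16 peaks, 5 CTCF summits). The SBNO2 body fell into 4 stretches, and the one at its end, 1097943 to 1108269, also held GPX4. POLR2E fell into 2 short ones, of 3.60 and 2.97 kb. Of the 28 CTCF summits 17 lay in 8 stretches and 11 in 6 of the 23 gaps between stretches.

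CTCF peaks were dense across the window as well, and several were among the strongest of the list. The window had 28 CTCF peaks, or 62.2 per Mb, against 26.2 per Mb on the rest of chromosome 19. Among 120 tiles of chromosome 19 of the same length (450 kb) its CTCF count was rank 3, tied with the next tile to the right (28), and the highest tile had 30. The median CTCF fold was 10.5 in the window and 9.52 in the whole list. For 22 of 28 peaks, 78.6% (Wilson 95% interval 60.5 to 89.8), −log10 q was at least 10, against 79.8% in the list. At thresholds of 5 and 20 the shares were 96.4% against 94.9% and 57.1% against 60%, all near the list. A fold in the top 5% of the list was found for 5 of 28 peaks, 17.9% (interval 7.88 to 35.6). Another summit within 2 kb was found for 9 of 28 summits, 32.1% (interval 17.9 to 50.7), against 11% of the list. These 9 formed 3 clusters and so are not independent, which makes the interval too narrow. Summit fragments had a median of 58 (range 14 to 116) in the window and 45 in the list. The local background was within 0.05 fragments of the lowest level for 11 of 28 CTCF peaks (39.3%), against 31.6% of the list.

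The 5 strongest CTCF peaks lay between genes of the set or outside all of them. The strongest, with its summit at 1194722 between SBNO2 and STK11, had a fold of 33.5 that ranked 153 of 36152, from 116 fragments (interval 95.9 to 139). The second, at 1244524 between STK11 and CIRBP, had a fold of 30.0 from 108 fragments (interval 88.6 to 130.4). The next were at 982876 (fold 28.9, 104 fragments) and 1000224 (fold 24.4, 84 fragments), both in the left flank, and at 1279874 after CIRBP (fold 23.9, 104 fragments). The weakest of the 28, at 1153930 inside SBNO2, had a fold of 4.32 from 14 fragments (interval 7.65 to 23.5). The strongest and the weakest thus differed beyond counting error, while the 5 strongest overlapped in their intervals of fragments.

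Of 28 summits 9 lay inside an H3K27ac peak, 32.1% (Wilson interval 17.9 to 50.7), against 8.4% of the list, while H3K27ac peaks covered 30.0% of the window. With peaks of a −log10 q of 10 or more in both lists it was 4 of 22, 18.2% (interval 7.31 to 38.5), beside a coverage of 20.8%, and with the stronger 50% of each list 3 of 16, 18.8% (interval 6.59 to 43.0), beside 24.7%. Each interval contained the coverage. Several summits shared an H3K27ac peak and are not independent, so these wide intervals cannot decide whether the shares differ from the coverage. All 9 were among the 16 summits of the domain, 56.3% of them (interval 33.2 to 76.9), beside a coverage of 52.6%. In the flanks 0 of 6 and 0 of 6 summits did. A further 3 summits lay in breaks of up to 500 bases between H3K27ac peaks, 10.7% (interval 3.71 to 27.2), against 1.68% of the list. Breaks of over 5 kb held 10 of 28, 35.7% (interval 20.7 to 54.2), against 87.4%. With 1 shared base between peaks as the criterion, 13 of 28 CTCF peaks overlapped H3K27ac, 46.4% (interval 29.5 to 64.2), against 14.2%. Of 113 H3K27ac peaks 14 overlapped CTCF, 12.4% (interval 7.53 to 19.7), against 10.1%, so that share was near the background. The higher CTCF shares stand in a window picked for acetylation, and how much of them comes from that choice was not tested.

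Inside summits fell into 3 kinds. The summits at 1194722 and 1244524, which had the 2 highest CTCF folds, lay 10 and 12 bases from an edge of their H3K27ac peak, and those peaks were weak, with folds of 3.68 and 6.23. The 3 summits at 1248293, 1249040 and 1250742 lay within the widest H3K27ac peak (fold 29.7), 949 to 3398 bases from its edge, and had CTCF folds of 14.4, 21.2 and 5.75. The other 4, at 1065093, 1107110, 1153930 and 1222707, had low CTCF folds between 4.32 and 6.36. The 3 summits in short breaks, at 1221646, 1240474 and 1267149, had CTCF folds of 11.1, 15.5 and 9.58 in breaks of 155, 206 and 131 bases.

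Dividing the window at every CTCF summit gave 29 segments, and acetylation was spread unequally over them. Segment lengths ran from 0.587 to 55.5 kb, with a median of 7.77 kb. In 10 segments peaks covered 50% or more, and in 9, with 154.6 kb of the 450 kb, under 10%. The 3 segments with the most acetylated bases held 45.2% of the acetylated length in 123 kb. The first of these ran from 1153930 to 1194722 and held the start-side part of SBNO2 and its upstream region, with 28.0 kb in peaks (68.6%). The next, from 1065093 to 1107110, held POLR2E and GPX4 together, with 17.0 kb in peaks (40.3%) and no CTCF summit between the genes. The segment from 1113397 to 1153930 was the inner body of SBNO2, with 16.1 kb in peaks (39.6%). Its highest H3K27ac fold was 7.90, against 36.5 in the segment at the SBNO2 start. The summit between these SBNO2 segments was the weakest of the window, at 14 fragments, so this division rests on few fragments. The summits that bound the POLR2E and GPX4 segment were weak too, at 22 and 18 fragments. The share of 45.2% thus also depends on weak summits.

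**Figure D3:**
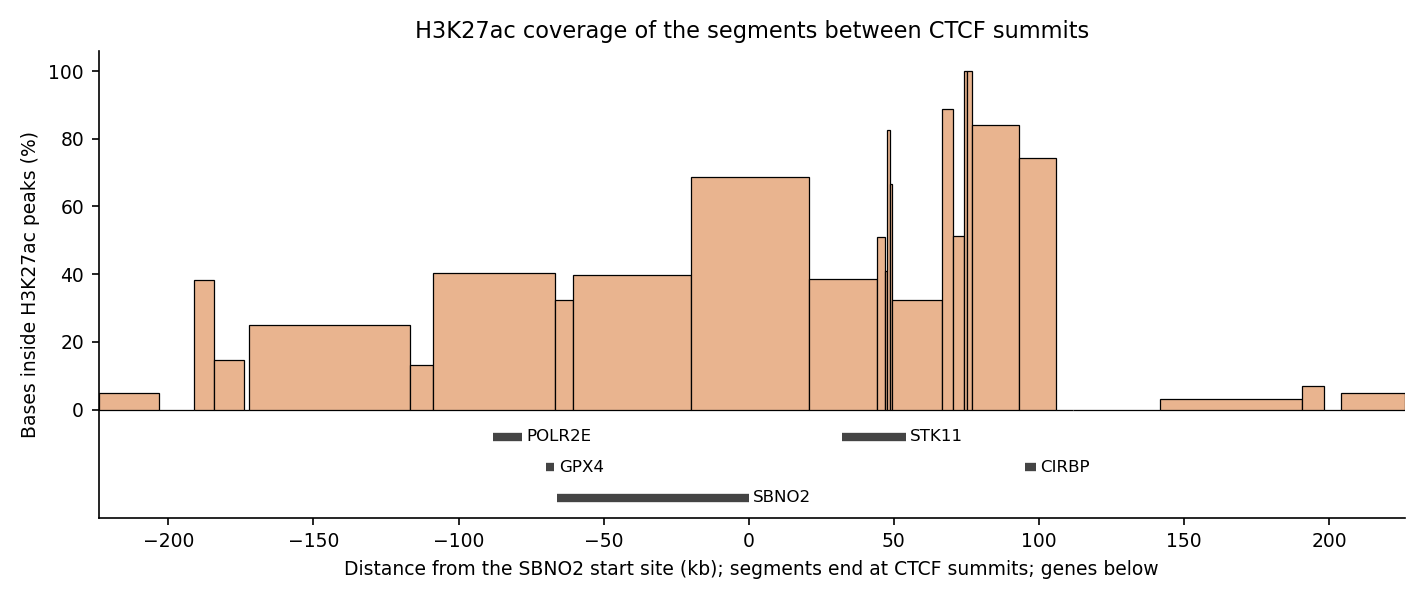
Percent of bases inside H3K27ac peaks in each of the 29 segments between CTCF summits (the outer ones end at the window), against distance from the SBNO2 start site in kb, with the genes below. Coverage is 68.6% in the segment at the SBNO2 start, 51.2% to 100% in the 6 segments before the CTCF summit after CIRBP, and 0% in the 2 segments beyond it.

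Between SBNO2 and STK11, the CTCF summit at 1194722 stood in a place less acetylated than the domain as a whole (52.6%). The 10 kb to its left were covered to 23.4% and the 10 kb to its right to 3.00%. Only the right side was below the 4.68% of the rest of chromosome 19. The domain's largest gap, 10.0 kb, began at 1195022 next to this summit and ended at 1205019, before the STK11 start. The 32 kb between the genes held 9 H3K27ac peaks, and the highest fold there, 23.5, was at the wide peak upstream of SBNO2.

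STK11 held 5 CTCF summits, the most of the 5 genes. SBNO2 had 2 and POLR2E, GPX4 and CIRBP had none in their bodies. The 5 summits spanned 5.08 kb, between 12.2 and 17.3 kb from the STK11 start, and 4 of them, from 1220808 to 1223294, were each within 2 kb of the next. Their folds ran from 5.47 to 17.1, from 18 to 74 fragments, so none came near the fold of 33.5 upstream of the gene. For each of the 5, H3K27ac coverage was higher in the 10 kb to the left, toward the STK11 start (58.0% to 63.5%), than in the 10 kb to the right (30.9% to 47.5%). These flanks overlap one another and are not independent.

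From 1240474 to 1279874, across the interval before CIRBP and CIRBP itself, 6 consecutive segments were covered to between 51.2% and 100%, with 31.2 of 39.4 kb in peaks (79.2%). The summit nearest the CIRBP start, 1.85 kb before it at 1267149, had a fold of 9.58 in a break of 131 bases between acetylated peaks. Its local background was 7.0 fragments, the highest of the 28, against a median of 2.46. The summit that closed the run, at 1279874, lay 2109 bases beyond the last acetylated base of the domain. Coverage in its 10 kb flanks was 69.2% on the left and 0% on the right. It was the only 1 of 28 summits whose flanks differed by 50 percentage points or more, 3.57% (interval 0.633 to 17.7), against 1.05% of the list. The next H3K27ac peak to the right was 74321 bases away. Further CTCF summits, at 1285803 (fold 6.33) and 1315827 (fold 9.91), lay in this bare region.

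**Figure D4:**
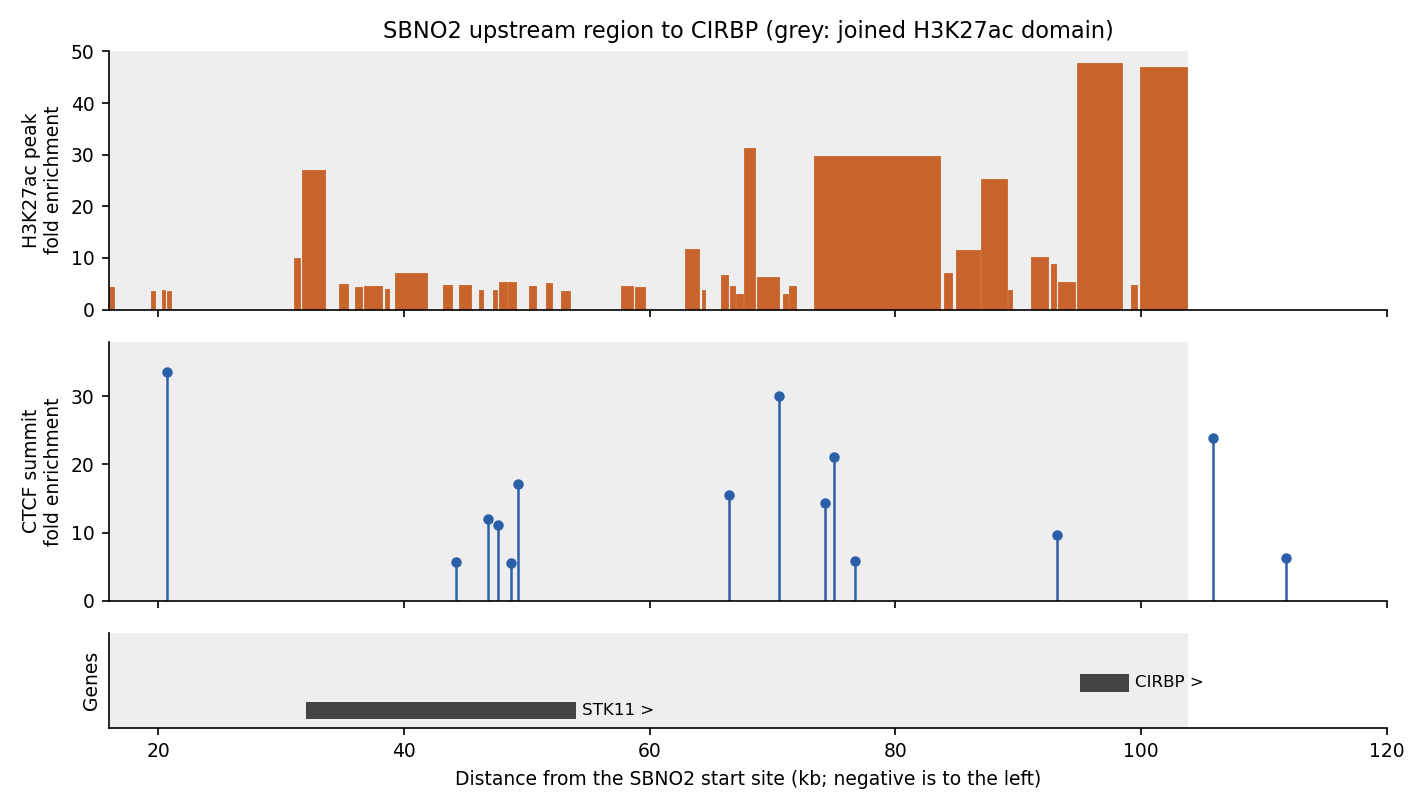
The region from upstream of SBNO2 to beyond CIRBP, with H3K27ac peaks (top) and CTCF summits (middle) by fold enrichment against distance from the SBNO2 start site in kb, and genes below. The CTCF summit with a fold of 33.5 stands left of STK11 beside a 10.0 kb gap in H3K27ac, the 5 summits in STK11 stand among weak acetylated peaks, and the summit with a fold of 23.9 stands just right of the domain.

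At the left edge the change in coverage at the nearest summits was smaller. The CTCF summit at 1057328, before the domain, had a fold of 7.47 from 25 fragments, with 0% coverage in the 10 kb to its left and 32.6% to its right. The next H3K27ac peak to its right was 6098 bases away, so most of that flank lay before the domain. A change as large as at 1279874 was not possible there, so the summit at 1057328 cannot decide whether the edges differ. The summit at 1065093, inside the domain's first peaks, had a fold of 6.36 from 22 fragments, with 10.2% on the left and 32.8% on the right. The strong summits of the left flank lay farther out. The one at 982876 had 0% to its left and 41.3% to its right, 248 bases before a peak at 983124 to 985336 with a fold of 29.5. Those at 1000224 and 1001852 (folds 24.4 and 22.8) lay in a break of 21.0 kb between H3K27ac peaks.

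Set beside other domains, the run ranked high in its length in peaks and its number of CTCF summits, which are totals that grow with domain length. Among domains of 100 kb or more, its CTCF rank per 100 kb was near its ranks in fold. Among 18213 joined H3K27ac domains it was rank 1 in acetylated length (113 kb), rank 3 in peaks (96), rank 4 in length and rank 2 in CTCF summits (16). Among the 52 domains of 100 kb or more it had the most CTCF summits, and the others had a median of 5 (range 0 to 14). Per 100 kb it had 7.46 summits, rank 5, against a median of 3.49 in the others. Its mean fold over acetylated bases was 15.3, rank 8, against a median of 10.1, and its highest fold of 47.8 was rank 5. The ranks in acetylation follow from the rule. These are ranks of 1 library each and carry no test.

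**Figure D5:**
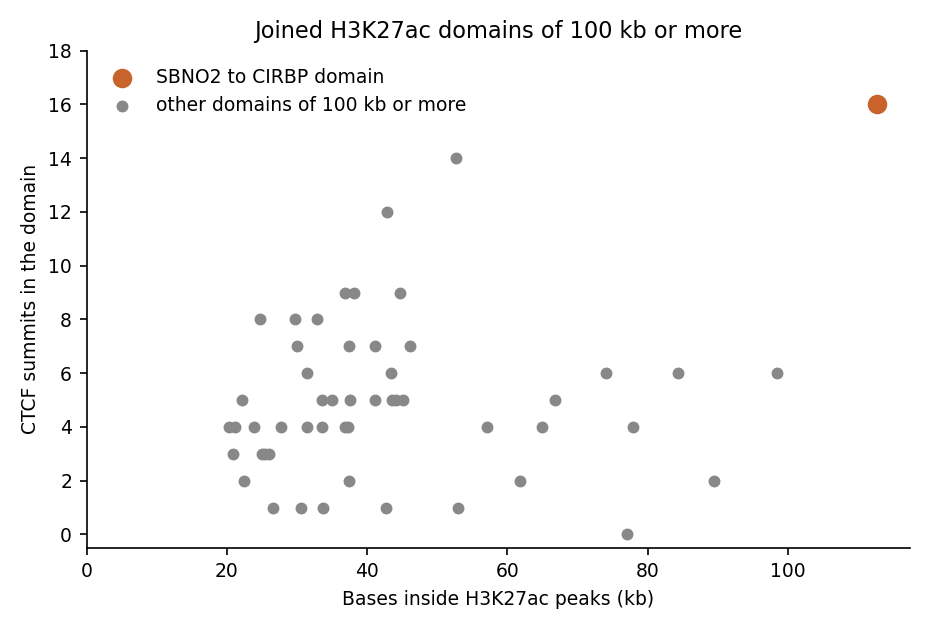
Number of CTCF summits against bases inside H3K27ac peaks (kb) for the joined H3K27ac domains of 100 kb or more, each a point. The SBNO2 to CIRBP domain, with 113 kb and 16 summits, lies to the upper right of all others, which reach 98.5 kb and 14 summits.

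The limits of the window cut through no peak. On the left the first H3K27ac peak inside had a fold of 4.55 and the last outside 2.79. On the right the last inside had 14.9 and the first outside 10.2. For CTCF the first inside on the left had 19.9 and the last outside 6.04, and on the right the last inside had 5.58 and the first outside 14.1.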

How the data were processed

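The members, gene intervals and distances were chosen with earlier results of these data known. CTCF and H3K27ac were each measured in 1 DU145 library. The submitters' processing notes name Bowtie, MACS2 and build hg19; their versions, settings and background library are not given. The authors deposited, per peak, its limits and summit, a whole-number score (not used), a fold enrichment (a linear ratio at the summit), a −log10 p-value and a −log10 q-value. Positions are counted from 1.

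Coverage, gaps, stretches (2 kb), domains (ROSE default distance), segments and ranks were computed with Python 3.11.15, numpy 2.4.6, pandas 2.3.3 and scipy 1.17.1. Overlap needed 1 shared base. Fragments at a summit were solved from the deposited fold and −log10 p, with 1 added to fragments and background and fragment numbers multiplied by 0.911 for CTCF and by 1 for H3K27ac. Only whole fragment numbers were tried, and these factors were chosen to solve the most peaks within 0.002 on −log10 p. With them 100% of CTCF and 99.6% of H3K27ac peaks were solved, and all peaks of the window. These shares are thus no independent check of the factors. Wilson and exact Poisson intervals are at 95% and cover counting error only. Peaks of 1 library are not replicates, so no test was made. Functions were tested on simulated data. Named were the 5 genes with their strongest and start-site H3K27ac peaks, the 5 strongest peaks of each list, the 3 widest H3K27ac peaks, and CTCF summits between and around the genes; other summits were named after their values were seen. Alternatives were stricter lists, other joining distances, gene flanks and overlap criteria. Motif letters were chosen with the promoters in view. Input signal was not analysed here.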

Additional observations from a re-analysis of the deposited data

How the results depend on the processing

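Of 46 alternatives over 15 values, 23 stayed within 1.5 times a count or coverage, or within the interval of a share, and 23 moved; alternatives for the joined domain were added after seeing the data. With a −log10 q of 10 or more in both lists, 42 H3K27ac peaks remained in number. Coverage was 20.2% for POLR2E, 27.7% for SBNO2 and 18.8% for STK11. The joined domain fell into 6 pieces (longest 40.9 kb with 5 CTCF summits, and over SBNO2 31.3 kb with 0). With the stronger 50% of each list, there were 63 H3K27ac and 16 CTCF peaks, 17 segments, 20.2% coverage of POLR2E, and 4 pieces (longest 72.7 kb with 8 CTCF summits; over SBNO2 43.6 kb with 1). Joining within 5 kb gave 5 pieces (longest 72.7 kb with 11 summits, and over SBNO2 56.6 kb with 2), while 10 kb gave the same 214 kb and 16 summits. The largest gap inside was 9.996 kb, so the 10 kb setting only just joined it. Stretches numbered 39 when joined within 1 kb, 12 within 5 kb and 6 over the ROSE distance. Summits inside H3K27ac peaks were 18.2% with the q threshold and 18.8% with the stronger 50%. Those inside or within 1 kb of a peak were 67.9% of 28. No share of the whole list is given for these settings, so they cannot be read as high or low. Moving the threshold to a −log10 q of 5 gave 76.1% of H3K27ac peaks in the window (list 70.6%) and 96.4% of CTCF peaks (list 94.9%), and a threshold of 20 gave 24.8% (list 29.5%) and 57.1% (list 60%). Peaks over 2 kb wide were 13.3% (list 7.41%). The smallest summit of the window rests on 12 H3K27ac or 14 CTCF fragments, which limits the ranking of weak peaks. No paired analysis was possible because each mark has 1 library and no test was made.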
